A study of Mus musculus with 80 samples.

Results

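The mitochondrial carriers of the Slc25 family were examined in 4 tissues of mice lacking UCP1, FGF21 or both, namely brown fat (BAT), the inguinal depot of white fat (iWAT), muscle and liver. Members were all gene symbols of the count tables that begin with Slc25a followed by a number, which gave 47 of 32764 symbols. UCP1, UCP2 and UCP3 belong to the same protein family but carry their own symbols and were therefore not members. RNA-seq was available from 80 libraries, 5 for each of the 4 genotypes in each tissue. The genotypes were WT, FGF21 KO, UCP1 KO and a double knockout (dKO), which the sample labels spell UCP1/FGF12 double KO and the study describes as UCP1/FGF21. All mice were males, and every genotype was on the C57BL/6J background. All mice were bred and raised at 30 °C, moved to 23 °C at an age of 10 to 12 weeks and then kept on high-fat food for 3 weeks, so the WT group carried the same temperature change and diet as the knockouts. Food was withdrawn for 2 to 3 hours before the tissues were taken. The labels name separate samples but do not say which libraries came from the same mouse, so p-values measure the spread between these samples.

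Slc25 proteins sit in the inner mitochondrial membrane, with a few exceptions in other membranes, and move small molecules between the cytosol and the matrix. The ADP/ATP carriers and the phosphate carrier supply ATP synthase, the citrate, malate and aspartate/glutamate carriers link the citric acid cycle to cytosolic pathways, and the carnitine/acylcarnitine carrier brings fatty acids to beta-oxidation. Brown adipocytes are rich in mitochondria and burn fatty acids for heat through UCP1, which leaks protons across the same membrane. FGF21 is a hormone known to induce browning, that is, brown-like features in white fat.

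Library totals lay between 28691377 and 50380696 counts with a median of 38022853, and no pair of libraries from 1 tissue held identical values. Fgf21 was counted at most 3 times in any library of the FGF21 KO and dKO groups. Ucp1 counts in BAT were 98548 to 216085 (WT) and 24291 to 60779 (UCP1 KO), and these whole-gene counts do not check the deleted part of the gene. Marker scores (mean log2 CPM over a list, where CPM is the count scaled to the size of the library) showed neighbouring tissue in some fat libraries. In iWAT, the lymph node score exceeded 4 in 4 libraries of FGF21 KO, 2 of WT, 2 of dKO and 1 of UCP1 KO and was otherwise at most 1.69 in this tissue. A skeletal muscle score over 4 was found in 1 FGF21 KO, 3 UCP1 KO and 4 dKO libraries of BAT and in none of WT. In whole tissue, fewer cells of a type and less RNA per cell cannot be told apart.

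In WT mice, each tissue had its own leading carriers. Levels were compared between genes as RPKM, that is, CPM per kilobase of exon. Slc25a5, the widely expressed ADP/ATP carrier, had the highest mean RPKM in BAT (313 ± 6.90, SD, n = 5), in iWAT (124 ± 11.9) and in liver (299 ± 24.7). Muscle was led by Slc25a4, the muscle-type ADP/ATP carrier, at 1700 ± 101, followed by the phosphate carrier Slc25a3 at 150 ± 10.5, the oxoglutarate/malate carrier Slc25a11 at 143 ± 11.8, Slc25a12 at 72.4 ± 3.03 and Slc25a5 at 31.9 ± 3.61. In BAT, Slc25a5 was followed by the citrate carrier Slc25a1 at 208 ± 50.8, Slc25a4 at 134 ± 3.86 and the carnitine/acylcarnitine carrier Slc25a20 at 132 ± 9.37. The spread of Slc25a4 overlapped that of Slc25a20. In iWAT, the next members were Slc25a1 at 110 ± 21.2, the dicarboxylate carrier Slc25a10 at 73.4 ± 13.8, Slc25a4 at 67.3 ± 25.4 and Slc25a3 at 43.7 ± 2.91. In liver they were Slc25a47, known as a liver-enriched carrier, at 198 ± 51.8, Slc25a39, which is needed for mitochondrial glutathione, at 111 ± 11.7, Slc25a1 at 103 ± 8.47 and the ornithine carrier Slc25a15, which serves the urea cycle, at 97.5 ± 5.72.

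**Figure D1:**
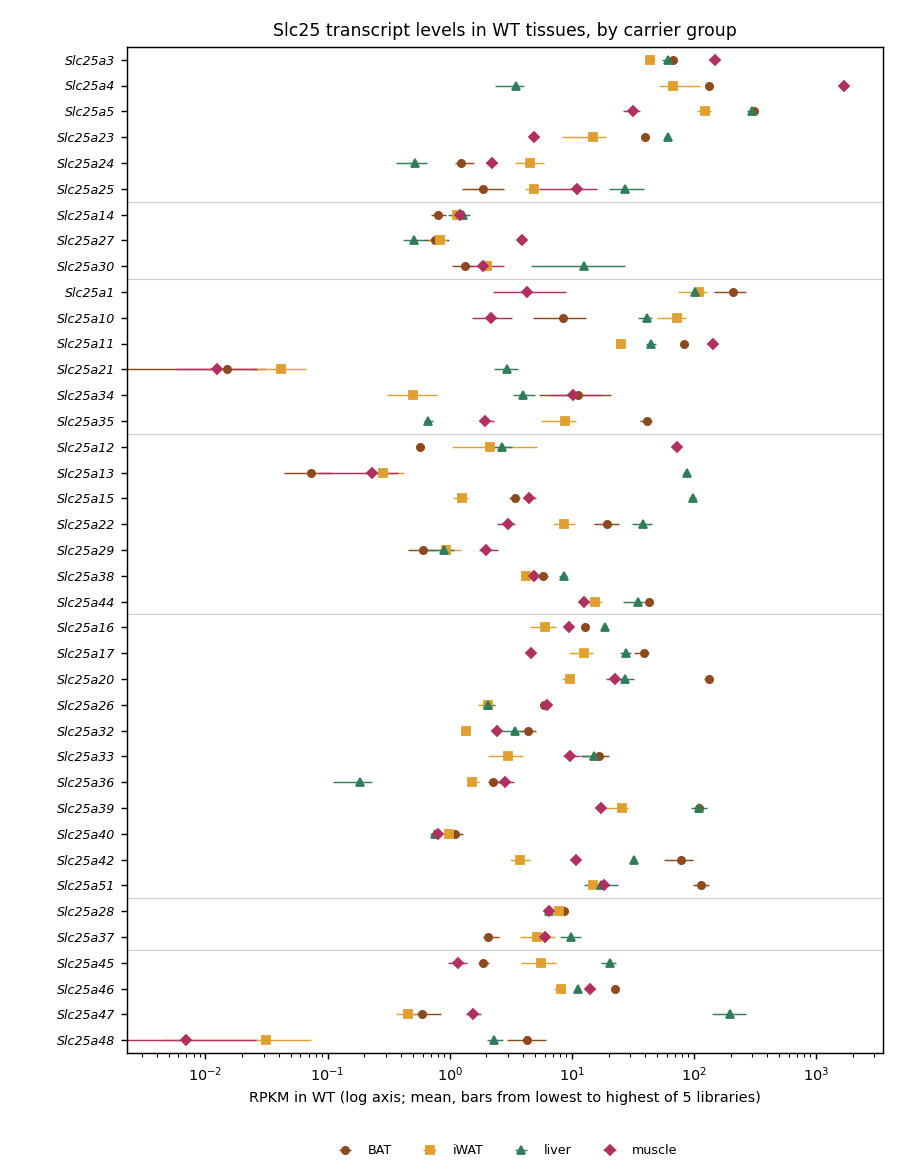
RPKM of Slc25 members in WT (log axis), grouped by what they carry or by their nearest relatives, with 1 point per tissue at the mean and a bar from the lowest to the highest of 5 libraries. Members with a mean below 1 in all tissues and 1 further member are not shown. Slc25a4 stands at 1700 in muscle, and Slc25a13 at 87.9 in liver and below 1 in the other tissues.

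By their highest mean level, 19 members were assigned to BAT, 15 to liver, 9 to muscle and 4 to iWAT. The libraries of the leading tissue did not overlap with any other tissue for 10, 12, 7 and 3 of these. The 19 of BAT include Slc25a54, which was at 0 in every WT library and so has no leading tissue. The lowest library of 1 tissue was above 4 times the highest library of every other tissue for several members. Among these were the NAD carrier Slc25a51 in BAT, Slc25a13, Slc25a15, Slc25a21 and Slc25a47 in liver, and Slc25a4 and Slc25a12 in muscle. The balance of some paralogs also differed between tissues. Slc25a5 made up 70.0% ± 1.01 (SD, n = 5) of the summed RPKM of Slc25a5 and Slc25a4 in BAT, 65.5% ± 9.41 in iWAT, 98.8% ± 0.230 in liver and 1.85% ± 0.252 in muscle. Of the aspartate/glutamate carriers, Slc25a13 (citrin) made up 97.1% ± 0.394 of the pair with Slc25a12 (aralar) in liver and 0.316% ± 0.149 in muscle.

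Brown and white fat of WT mice differed in most carriers. Of 43 members tested with edgeR's quasi-likelihood test (Benjamini-Hochberg adjusted p under 0.01), 26 were higher and 12 were lower in BAT than in iWAT, against a background of 60.7% of all genes called (28% higher and 32.7% lower). The median difference of the members on the log2 scale was 1.00 and that of all genes was -0.10. Carriers of cofactors and acyl groups stood highest, with 11 of 12 higher in BAT and a median difference of 1.90. Slc25a48 had the largest difference at 7.14 (SE 0.470), followed by Slc25a34 at 4.48 (SE 0.396), the coenzyme A carrier Slc25a42 at 4.37 (SE 0.138), Slc25a20 at 3.77 (SE 0.115) and Slc25a51 at 2.93 (SE 0.137). The value of Slc25a48 rests on few counts in WT iWAT, where its mean was 0.0311 ± 0.0277 RPKM (SD) against 4.27 ± 1.54 in BAT. The members lowest in BAT were Slc25a10 at -3.10 (SE 0.240), Slc25a13 at -1.93 and the calcium-regulated ATP-Mg/phosphate carrier Slc25a24 at -1.86. Slc25a13 was low in both depots, with a mean RPKM of 0.0739 in BAT and 0.287 in iWAT. Slc25a12 stood at -1.90, but its scaled CPM in WT iWAT was 62.7 in replicate 5 and 12.4 to 23.3 in the others. That library also had the highest skeletal muscle score of its group (9.62) and the highest Slc25a4 value (433, others 202 to 222), and the part of this score in the values was not tested. Adjusted p-values of the members named here were between 1.42e-15 and 3.80e-05. Compared with liver, 18 members were higher and 15 lower in BAT (background 67.3%), and compared with muscle, 23 were higher and 13 lower (background 64.1%). The amino acid carriers showed 0 of 8 higher and 5 lower in BAT than in liver by the same test.

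Loss of UCP1 changed the carriers of BAT in both directions, with mitochondrial iron carriers among those that rose. With FGF21 present (UCP1 KO minus WT), 9 of 44 members tested were called, 4 higher and 5 lower, which is 20.5% against a background of 25.2% of all genes (13.8% higher and 11.4% lower). Without FGF21 (dKO minus FGF21 KO), 8 of 44 members (18.2%) were called, 4 higher and 4 lower, against a background of 13.5% (6.74% higher and 6.8% lower). Both shares were near their background. Slc25a37 and Slc25a28 (mitoferrin 1 and 2), Slc25a33 and Slc25a39 rose in both comparisons, and Slc25a23 and Slc25a38 fell in both. Without UCP1 KO replicate 1 the first count was 14, and without dKO replicate 1, 2 or 5 or FGF21 KO replicate 3 or 4 the second was 5. Called members of either direction were found among the carriers of adenine nucleotides and phosphate (1 of 7 in each comparison), of amino acids (1 and 2 of 9), of cofactors and acyl groups (3 of 12 in each), of iron (2 of 2 in each) and, in UCP1 KO against WT alone, among the di- and tricarboxylate carriers with their relatives Slc25a34 and Slc25a35 (1 of 5, Slc25a35, which has no established substrate) and among the remaining members (1 of 6).

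Slc25a37 (chr14:69241848-69285112, minus strand, mm10) imports iron into mitochondria, where heme and iron-sulfur clusters are made. Its scaled CPM was 11.9, 12.6, 13, 12.1 and 16.1 in the 5 WT libraries of BAT and 24.1, 25.2, 28, 30.7 and 35.2 in UCP1 KO. It was 14.1, 15, 12.8, 14.2 and 12.4 in FGF21 KO and 22.5, 24, 23.9, 25.2 and 20.9 in dKO. All libraries without UCP1 lay above all libraries with it. The log2 fold change was 1.12 (SE 0.103, edgeR adjusted p = 4.46e-07) for UCP1 KO against WT, a 2.18-fold rise, and 0.77 (SE 0.102, adjusted p = 3.83e-05) for dKO against FGF21 KO. An exon of Slc25a37 overlaps annotated genes on the opposite strand, and the strand setting used in counting is not given in the sources used here. The same limit holds for Slc25a33, Slc25a23 and Slc25a35, whose exons also overlap a gene on the opposite strand.

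Slc25a28 (chr19:43663801-43674881), the widely expressed mitoferrin, moved the same way by a smaller amount. Its scaled CPM in BAT was 36.4, 36.6, 33.1, 36 and 30.1 in WT against 35.9, 45.6, 51.5, 51.6 and 57.5 in UCP1 KO. It was 33.1, 30.7, 33.4, 33.5 and 30.2 in FGF21 KO against 57.4, 53, 46, 38.9 and 56.1 in dKO. UCP1 KO replicate 1 fell within the WT range, whereas dKO and FGF21 KO did not overlap. The log2 fold changes were 0.49 (SE 0.113, edgeR adjusted p = 0.00217) and 0.64 (SE 0.113, adjusted p = 0.000504). Per length, Slc25a37 made up 19.3% ± 3.36 (SD, n = 5) of both mitoferrins in WT and 27.0% ± 1.69 in UCP1 KO. The log2 ratio of the pair differed by 0.64 between UCP1 KO and WT, which gave p = 0.00794 in a two-sided exact permutation test, the smallest p this design allows, and p = 0.238 after adjustment over 30 tests.

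Slc25a33 (chr4:149744036-149774277), a pyrimidine nucleotide carrier, was counted at a scaled CPM of 24, 31.3, 37.5, 32.7 and 40.2 in WT BAT and 77.3, 41.1, 62.2, 82.1 and 91.8 in UCP1 KO. It reached 31.3, 32.4, 25.4, 35.7 and 41.5 in FGF21 KO and 58.9, 49.5, 51.9, 83.5 and 58.1 in dKO. The groups did not overlap in either comparison, but UCP1 KO replicate 2 lay just above the highest WT library. The log2 fold changes were 1.10 (SE 0.196, edgeR adjusted p = 0.000282) and 0.86 (SE 0.195, adjusted p = 0.00352). The second call was lost when the muscle score was added to the model (0.95, adjusted p = 0.0126) and without FGF21 KO replicate 3 (0.78, adjusted p = 0.0110).

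Slc25a39 (chr11:102402985-102407946) is needed for mitochondrial glutathione and was the most abundant of the rising members. Its scaled CPM in BAT was 302, 337, 334, 304 and 328 in WT and 482, 469, 602, 508 and 614 in UCP1 KO. It was 349.7, 364, 312, 323 and 343 in FGF21 KO and 612, 593, 526, 361 and 646 in dKO. The UCP1 KO libraries all exceeded the WT libraries, while dKO replicate 4 was within the FGF21 KO range. The log2 fold changes were 0.74 (SE 0.121, edgeR adjusted p = 0.000135) and 0.70 (SE 0.120, adjusted p = 0.000447).

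Slc25a23 (chr17:57043711-57059863), a calcium-regulated ATP-Mg/phosphate carrier, was the most significant of the members that fell. Its scaled CPM in BAT was 223, 238, 226, 227 and 205 in WT against 160.1, 121, 132, 133 and 118 in UCP1 KO. It was 245, 249, 226, 214 and 173 in FGF21 KO against 161, 142, 164, 141 and 151 in dKO, and the groups were separate in both comparisons. The log2 fold change was -0.75 (SE 0.0949, edgeR adjusted p = 1.14e-05) with FGF21 present and -0.54 (SE 0.0946, adjusted p = 0.000459) without it.

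Slc25a38 (chr9:120110374-120124504) carries glycine for the first step of heme synthesis. Its scaled CPM in BAT was 16.1, 15.7, 17.5, 18.7 and 16.2 in WT and 10.9, 11.8, 10.8, 11.5 and 9.69 in UCP1 KO. It was 15.2, 12.4, 15.7, 14.4 and 16 in FGF21 KO and 10.7, 10.5, 12.5, 12.8 and 11.8 in dKO. WT and UCP1 KO were separate, whereas FGF21 KO replicate 2 lay within the dKO range. The log2 fold changes were -0.63 (SE 0.0834, edgeR adjusted p = 1.94e-05) and -0.34 (SE 0.0832, adjusted p = 0.00607). The second value was close to the threshold and was not called without dKO replicate 1, 2 or 5 or FGF21 KO replicate 1, 3, 4 or 5 (adjusted p up to 0.0195) or on total counts (-0.12, adjusted p = 0.347). The glycine carrier and the iron carriers, which serve the same heme pathway, moved in opposite directions in UCP1 KO.

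**Figure D2:**
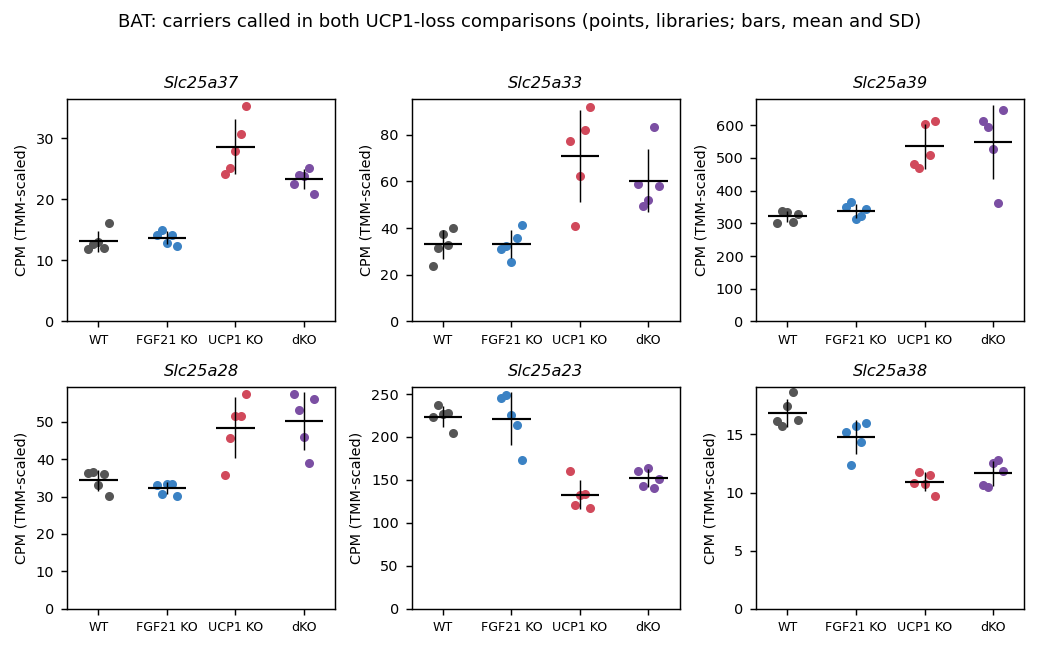
Scaled CPM of the 6 members called in both UCP1-loss comparisons of BAT, with 1 point per library, a line at the mean and a bar of 1 SD for the 4 genotypes (n = 5 each). Slc25a37, Slc25a33, Slc25a39 and Slc25a28 are higher and Slc25a23 and Slc25a38 lower in UCP1 KO and dKO than in WT and FGF21 KO.

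Other members were called in 1 of the comparisons. Slc25a35 fell by 0.42 on the log2 scale in UCP1 KO (edgeR, adjusted p = 0.00162). Slc25a48 fell by 1.19 (SE 0.322, adjusted p = 0.00663), although its libraries overlapped between the groups. Slc25a15 and the coenzyme A related carrier Slc25a16 fell by 0.29 and 0.32 in dKO against FGF21 KO (adjusted p = 0.00882 and 0.00482). On total counts, Slc25a35, Slc25a48, Slc25a15 and Slc25a16 were not called (adjusted p from 0.0167 to 0.564), and Slc25a48, Slc25a15 and Slc25a16 were also lost when single libraries were left out (5, 15 and 6 of 20). The difference between the comparisons was not called for any member. The interaction of UCP1 and FGF21 loss had 0 of 44 members called in BAT by edgeR (3 at an unadjusted p under 0.05, 0 by DESeq2, and 0% of all genes).

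The main ADP/ATP carrier Slc25a5 and the phosphate carrier Slc25a3 were not called in BAT with TMM factors. In UCP1 KO against WT, the log2 values were 0.21 for Slc25a5 (edgeR adjusted p = 0.0501) and 0.07 for Slc25a3 (adjusted p = 0.448). Some members varied more within the knockouts than between groups. The scaled CPM of Slc25a12, the aspartate/glutamate carrier of muscle, was 4.41, 4.11, 4.58, 4.72 and 4.49 in WT and 3.38, 41, 6.17, 6.83 and 14.9 in UCP1 KO, and its value of 1.69 on the log2 scale was not called (adjusted p = 0.0169). It was 23, 5.62, 23.6, 17.9 and 5.33 in dKO. The skeletal muscle score of the same libraries was 2.17, 9.50, 5.98, 4.90 and 2.41 in UCP1 KO and 8.36, 2.64, 8.46, 8.48 and 4.66 in dKO, and at most 2.97 in WT. Its part in the Slc25a12 values was not tested. With this score as a covariate, 7 members were called in UCP1 KO against WT and 5 in dKO against FGF21 KO. The shares of all genes given above belong to the fit without the score, so these counts cannot be set beside them.

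The 2 BAT comparisons share no libraries. Of 44 members, 39 (88.6%) had the same sign in both, with 6 called in both, and the log2 fold changes correlated with r = 0.846 across members, which are not independent replicates. Across all genes, 83.3% had the same sign and r was 0.876. The plot of both responses shows the members along the diagonal. No member was called in UCP1 KO against dKO (3 at an unadjusted p under 0.05, background 0.0636%) or in FGF21 KO against WT (2 at an unadjusted p under 0.05, background 0%) by edgeR, and DESeq2 called 0 in either comparison.

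**Figure D3:**
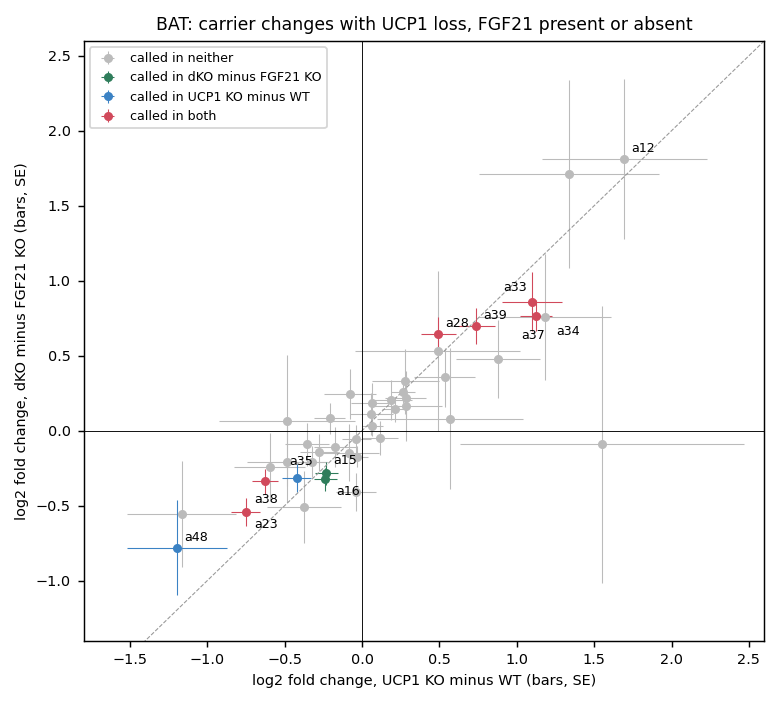
Log2 fold change in BAT of UCP1 KO against WT (x axis) and of dKO against FGF21 KO (y axis) for 43 of the 44 members tested, with bars of 1 SE. Slc25a37 lies at 1.12 and 0.77, and Slc25a23 at -0.75 and -0.54.

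The split of calls in BAT depended on how libraries were scaled. TMM factors, which assume that most genes do not change, averaged 0.924 in WT and 1.14 in UCP1 KO. When libraries were scaled by their total counts alone, the median of all genes moved by 0.29 on the log2 scale for UCP1 KO against WT and by 0.23 for dKO against FGF21 KO. The called members then became 14 higher and 3 lower (background 36.2%) and 9 higher and 1 lower (background 19%). Over all genes, 5235 of 15729 were then called higher and 455 lower in the first comparison and 2722 and 274 in the second. The calls kept under both scalings were 7 and 5, and no called member changed sign. Slc25a5 was among the members gained in both comparisons (0.50, edgeR adjusted p = 9.13e-05, and 0.37, adjusted p = 0.00256), and Slc25a3 was gained in UCP1 KO against WT (0.37, adjusted p = 0.00246). Slc25a37, Slc25a33, Slc25a39 and Slc25a28 remained higher and Slc25a23 lower in both comparisons. The summed scaled CPM of all members was 5903 ± 194 in WT and 5662 ± 555 in UCP1 KO (SD, n = 5) with overlapping libraries, whereas on the total-count scale the sums were 5249 to 5660 (mean 5450) and 5756 to 7115 (mean 6405), without overlap and in the opposite order. The symbols DQ539915 and X57780 held a mean of 8.8% and 5.45% of all counts in WT and 3.61% and 1.98% in UCP1 KO. Their part in the sums was not tested. The macrophage score also differed, at 2.80 to 3.15 (WT) and 3.60 to 5.17 (UCP1 KO), and its part in these values was not tested.

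Genes that work with the carriers in BAT moved in several directions. Of 20 respiratory chain and ATP synthase genes, 8 fell and 0 rose in UCP1 KO against WT by edgeR (4 and 0 in dKO against FGF21 KO), where 11.4% and 6.8% of all genes were lower. The median of this list in UCP1 KO against WT was -0.25, which is smaller in size than the shift of 0.29 between the scalings. The counts of the next lists stand beside 25.2% of all genes called in UCP1 KO against WT. Ucp2, a relative of UCP1, had a mean CPM of 42.8 ± 2.05 (SD, n = 5) in WT and 134 ± 44.6 in UCP1 KO. It rose by 1.65 on the log2 scale (adjusted p = 5.02e-06), and by 1.24 in dKO against FGF21 KO (adjusted p = 0.000142). Of 4 malate-aspartate shuttle enzymes, Got1 (2.58, adjusted p = 3.43e-07) and Got2 (1.24, adjusted p = 0.000512) rose in UCP1 KO. Of the carriers of this shuttle, Slc25a12 (1.69, adjusted p = 0.0169) and Slc25a13 (0.88, adjusted p = 0.0151) missed the threshold with TMM factors and were called on total counts (2.01, adjusted p = 0.00511, and 1.18, adjusted p = 0.00201), and Slc25a11 was called under neither. Slc25a13 rests on few counts, at 0.176 to 0.434 scaled CPM in WT and 0.389 to 0.697 in UCP1 KO. The part of the skeletal muscle score in the Slc25a12 values was not tested, as stated above. Of 11 other mitochondrial transporters, the calcium channel subunit Mcu and the outer membrane channels Vdac1 and Vdac3 rose in UCP1 KO. Of 4 enzymes of the carnitine shuttle, Cpt1a rose by 1.57 (adjusted p = 0.000117) and Cpt1b fell by 0.41 (adjusted p = 0.00533), while Slc25a20 was not called. None of 5 genes for the import of carriers was called.

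In iWAT, the carnitine/acylcarnitine carrier Slc25a20, the coenzyme A carrier Slc25a42 and Slc25a34 rose in UCP1 KO against WT, 3 of 43 members tested (6.98%) against a background of 0.61% of all genes (0.593% higher and 0.0173% lower). Slc25a34 and Slc25a42 were also higher in UCP1 KO than in dKO (background 0.466%, with 0.437% higher and 0.0288% lower), and no member fell in either comparison. Of the 43 members, 26 and 30 had a positive value, with medians of 0.21 and 0.27 on the log2 scale beside -0.03 and -0.04 for all genes. Among the carriers of cofactors and acyl groups, 11 of 12 values were positive in each comparison and 2 and 1 were called. Both comparisons use the UCP1 KO libraries.

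Slc25a20 (chr9:108662088-108684641) exchanges acylcarnitine for carnitine. Its scaled CPM in iWAT was 77.7, 82.7, 77.4, 79.4 and 66.5 in WT and 232, 125, 310.0, 317 and 565 in UCP1 KO. It was 52.1, 87.6, 38.2, 42.8 and 40.6 in FGF21 KO and 52, 98.6, 57.9, 101 and 139 in dKO. All UCP1 KO libraries were above all WT libraries, but the highest dKO library was above the lowest UCP1 KO library. The log2 fold change against WT was 2.01 (SE 0.345, edgeR adjusted p = 0.00447), a 4.04-fold rise, and the difference from dKO was 1.79 (SE 0.342, adjusted p = 0.0112, not called).

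Slc25a34 (chr4:141618824-141623821) has no established substrate and was low in WT iWAT. Its scaled CPM was 1.58, 1.33, 2.21, 2.33 and 3.44 in WT and 21.8, 5.71, 16.2, 14.7 and 68.2 in UCP1 KO. It was 0.434, 1.31, 0.223, 0.522 and 0.579 in FGF21 KO and 0.47, 0.653, 0.785, 2.25 and 2.32 in dKO. UCP1 KO did not overlap with any other genotype, and its replicate 5 lay far above the others. The log2 fold change was 3.54 (SE 0.644, edgeR adjusted p = 0.00669) against WT, an 11.6-fold rise, and 4.29 (SE 0.669, adjusted p = 0.00338) against dKO. Without UCP1 KO replicate 5 these values were 2.74 (adjusted p = 0.0215, not called) and 3.50 (adjusted p = 0.00656).

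Slc25a42 (chr8:70184340-70212305) carries coenzyme A into the matrix. Its scaled CPM was 35.7, 44.5, 39.8, 34.3 and 30.7 in WT and 96.1, 43.5, 103, 102 and 231 in UCP1 KO. It was 24.7, 38.6, 16.2, 24 and 19 in FGF21 KO and 26.4, 32.7, 27.8, 35.6 and 28 in dKO. UCP1 KO replicate 2 was just under the highest WT library, and dKO was separate from UCP1 KO. The log2 fold change was 1.64 (SE 0.313, edgeR adjusted p = 0.00953) against WT and 1.94 (SE 0.316, adjusted p = 0.00394) against dKO. Slc25a42 lies on the same chromosome as Ucp1, 13.1 Mb away.

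These calls were few and close to the threshold, and in both comparisons the count was 0 when the 2 compared genotypes were fitted alone. The count in UCP1 KO against WT dropped to 0 when any WT library or UCP1 KO replicate 3, 4 or 5 was left out, and to 1 without FGF21 KO replicate 1 or 5. It rose to 5 without FGF21 KO replicate 2 and to 7 without UCP1 KO replicate 2, the only UCP1 KO library with a high lymph node score (7.34) and the library with the lowest values of the 3 carriers. It was 9 among libraries with a low lymph node score and 9 with DESeq2. The share of all genes given above belongs to the edgeR fit of all libraries, so these counts cannot be set beside it. In UCP1 KO against dKO, the count was 0 without dKO replicate 1, 2 or 3, 1 without dKO replicate 5 or UCP1 KO replicate 3 or 4, 4 without FGF21 KO replicate 2 and 6 without UCP1 KO replicate 2. The brown adipocyte score was 4.34 to 6.09 in UCP1 KO, 1.62 to 2.54 in WT and 1.37 to 3.31 in dKO iWAT, and its part in the carrier values was not tested.

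**Figure D4:**
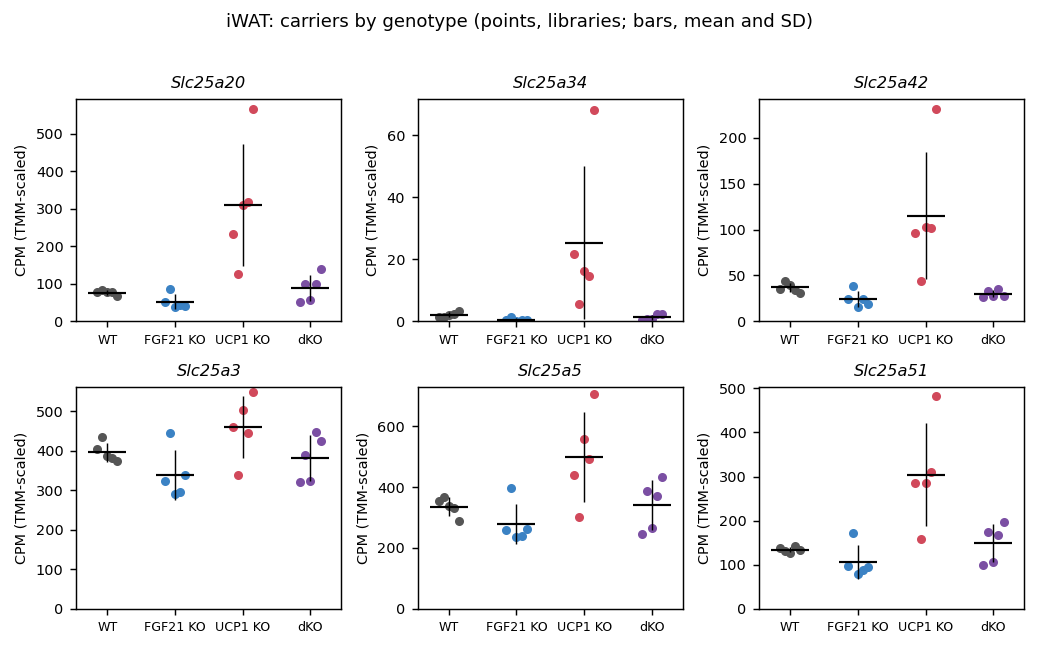
Scaled CPM in iWAT of the named carriers, with 1 point per library, a line at the mean and a bar of 1 SD for the 4 genotypes (n = 5 each). For Slc25a34 the UCP1 KO libraries span 5.71 to 68.2 and the dKO libraries 0.47 to 2.32.

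Further members had positive values in UCP1 KO iWAT that were not called. Slc25a51 reached 158 to 483 against 127 to 142 in WT (log2 fold change 1.18, edgeR adjusted p = 0.0226). Slc25a48 was below 1 in all WT and dKO libraries and 0.799 to 4.72 in UCP1 KO (4.05, adjusted p = 0.0195). Slc25a39 and Slc25a33, which rose in BAT, had values of 1.16 and 1.19 (adjusted p = 0.0595 and 0.0567). The ADP/ATP carrier Slc25a5 and the phosphate carrier Slc25a3 had 0.57 (adjusted p = 0.170) and 0.21 (adjusted p = 0.577). Slc25a37 was high in the iWAT libraries with a high lymph node score, whose part in its values was not tested. Its scaled CPM was 42.5, 37.1, 41.6, 63.1 and 71.6 in WT and 78.8, 29.6, 93.5, 76.3 and 82 in FGF21 KO, where the score was 0.28, 1.36, 1.69, 6.53 and 7.03 and 7.21, 0.21, 7.71, 7.28 and 7.33.

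The respiratory chain list was used as a reference for these values. All 20 of its genes had a positive value in UCP1 KO against WT, with a median of 1.11 and 1 call, Cox5a. The carriers were then expressed per library as log2 CPM minus the mean log2 CPM of this list, where only the change between genotypes is read. Slc25a20 moved from -1.49 (-1.53 to -1.45) in WT to -0.64 (-0.88 to -0.25) in UCP1 KO, a larger rise than that of the list, and was at -1.27 in dKO. Slc25a34 moved from -6.64 to -4.55 and was at -7.44 in dKO. In contrast, Slc25a3 moved from 0.88 (0.80 to 0.96) to 0.07 (-0.29 to 0.56) and Slc25a5 from 0.63 to 0.16, so their level relative to the list was lower in UCP1 KO. Slc25a51 was at -0.68 and -0.59 and kept pace with the list. These values are descriptions without a test. Of the enzymes of the carnitine shuttle, Cpt1b rose by 3.76 (edgeR adjusted p = 0.00213) in UCP1 KO against WT, and the import chaperone Timm9 rose by 1.08 (adjusted p = 0.00391).

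No member was called in dKO against FGF21 KO (2 at an unadjusted p under 0.05, background 0.0115%), in FGF21 KO against WT (6, background 0.00575%) or in the interaction (6, background 0%) in iWAT by edgeR or by DESeq2. These comparisons of UCP1 loss with and without FGF21 share no libraries, and 36 of 43 members (83.7%) had the same sign in both, with r = 0.652, against 59.9% and 0.116 for all genes. Members are not independent replicates. The dependence of the response on FGF21 was not called for any member by the test of the interaction itself, whose smallest adjusted p was 0.203.

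The upstream sequences of the 3 called carriers are shown because they rose together in iWAT. They are taken from RefSeq (GRCm38.p6) and run 5′ to 3′ on the gene's strand up to the gene model or the listed start, whichever comes first. Capitals mark a match to AAGGTCA, a motif of nuclear receptors such as ERR, read on the opposite strand. The window of Slc25a34 (chr4:141623835-141624084, minus strand) holds 1 match that starts 119 bases before the transcription start, and the windows of Slc25a42 (chr8:70212306-70212531, minus strand) and Slc25a20 (chr9:108661886-108662087, plus strand) hold none.
Slc25a34: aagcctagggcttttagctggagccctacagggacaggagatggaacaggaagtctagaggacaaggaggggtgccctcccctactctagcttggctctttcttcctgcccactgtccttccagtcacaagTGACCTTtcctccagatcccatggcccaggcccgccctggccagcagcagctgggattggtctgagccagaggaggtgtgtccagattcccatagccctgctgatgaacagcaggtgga
Slc25a42: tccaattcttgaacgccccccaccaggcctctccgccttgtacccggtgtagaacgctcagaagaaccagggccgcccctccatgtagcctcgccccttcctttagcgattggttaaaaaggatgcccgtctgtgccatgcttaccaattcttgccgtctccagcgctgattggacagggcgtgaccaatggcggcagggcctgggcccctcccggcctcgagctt
Slc25a20: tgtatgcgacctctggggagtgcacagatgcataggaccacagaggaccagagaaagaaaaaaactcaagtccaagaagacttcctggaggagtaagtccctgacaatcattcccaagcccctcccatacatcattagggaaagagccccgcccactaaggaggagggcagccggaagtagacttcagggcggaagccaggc

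Promoters were listed for 36 of the 47 members, each running from 250 bases before to 50 after a start. AAGGTCA on either strand was found in 1 of the 46 promoters of these members (2.17%) and in 1550 of all 32851 promoters (4.72%). GCGCATG, the core of the NRF1 motif, was found in Slc25a31 and Slc25a54 (4.35% of the members' promoters) and in 3.91% of all promoters. TGATGNAA, an ATF4-CEBP element, was found in 0 members and in 3.97% of all promoters. A match is a description of letters, and its absence concerns this window alone.

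The response to UCP1 loss differed between the fat depots for 7 of 45 members. In a joint fit of 40 libraries, the log2 fold change of UCP1 KO against WT in iWAT minus that in BAT was above 0 for all 7, with 0 below, against a background of 6.4% of all genes called (4.45% higher and 1.95% lower). Among these, the difference was 5.28 (SE 0.837) for Slc25a48, 2.02 (SE 0.395) for Slc25a42, 1.96 (SE 0.360) for Slc25a20, 1.48 (SE 0.287) for Slc25a51, 0.85 (SE 0.158) for Slc25a11 and 0.50 (SE 0.131) for Slc25a38. Adjusted p-values by edgeR were between 6.00e-05 for Slc25a48 and 0.00858 for Slc25a38. The call of Slc25a38 was lost in 17 of 20 fits that left out 1 library. Total counts without factors were not used in this joint fit. In the fits per tissue they moved the median of all genes in UCP1 KO against WT by 0.29 in BAT and by -0.19 in iWAT. Both shifts lower the difference of iWAT minus BAT, and its size on that scale was not tested. Slc25a48 fell in BAT and had a positive value in iWAT, where its WT libraries were at only 0.0242 to 0.404 scaled CPM. Slc25a20 and Slc25a42 were called in iWAT alone. Of the 20 respiratory chain genes, 18 were also called with a larger value in iWAT. The exons of Slc25a11 overlap those of a gene on the opposite strand, and reads of both cannot be told apart where strand was not used in counting. The exons of Slc25a51 overlap those of a gene on the same strand, which strand cannot separate.

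Members with positive values in iWAT of UCP1 KO were mostly those higher in brown than in white fat. The difference between BAT and iWAT in WT was set against the difference between UCP1 KO and dKO in iWAT, which share no libraries. Of the 26 members higher in WT BAT, 25 had a positive value in UCP1 KO against dKO, with a median of 0.56 (96.2%, against 83.7% of all genes higher in WT BAT). Of the 12 members lower in WT BAT, 11 had a negative value, with a median of -0.19 (91.7%, against 75.6% of all genes lower in WT BAT). Across 43 members r was 0.833 and Spearman's rho 0.884, and across all 16505 genes they were 0.354 and 0.534. Members are not independent replicates and were measured in the same libraries. Leaving out each iWAT library in turn gave r between 0.802 and 0.855. With libraries of a low lymph node score r was 0.806, and with this score in the model r was 0.792, each with 25 of 26 and 9 of 12. The values of the members lower in WT BAT were small, and their count below 0 was 9 to 12 of 12 when single libraries were left out, with medians of -0.26 to -0.12. Without UCP1 KO replicate 5 or dKO replicate 3 that median was -0.12, with the lymph node score in the model it was -0.09, and on total counts it was -0.38.

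**Figure D5:**
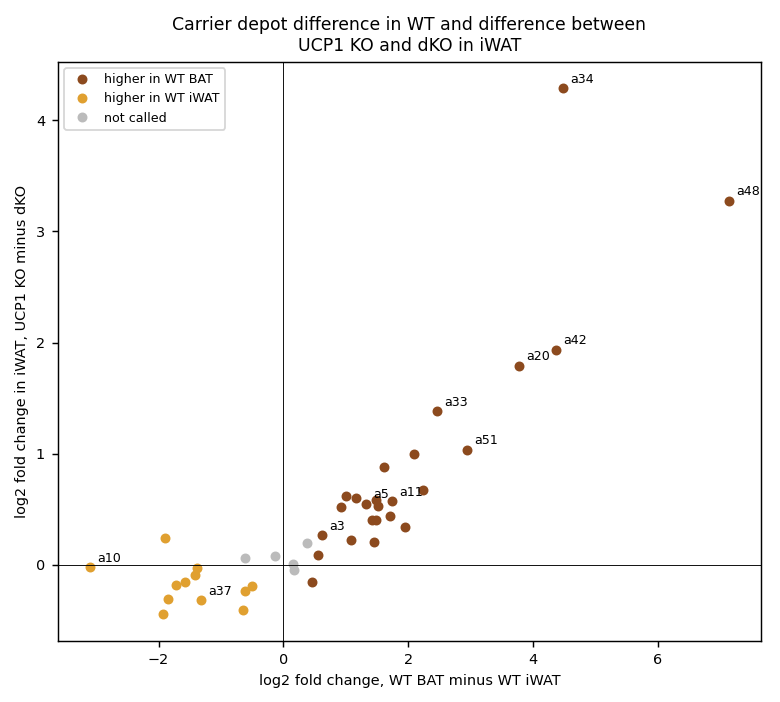
Log2 difference between BAT and iWAT in WT (x axis) and between UCP1 KO and dKO in iWAT (y axis), with 1 point per member for 42 of the 43 tested. Slc25a34, Slc25a42 and Slc25a20 lie at the upper right, at 4.48, 4.37 and 3.77 on the x axis and 4.29, 1.94 and 1.79 on the y axis.

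Carriers of liver and muscle were not called in any comparison. In liver, 0 of 42 members were called in UCP1 KO against WT (background 0.0694%, 2 at an unadjusted p under 0.05), dKO against FGF21 KO (0.00694%, 3), UCP1 KO against dKO (0.00694%, 3) and FGF21 KO against WT (0.229%, 4) by edgeR, and 0 by DESeq2. The members with the smallest p in UCP1 KO against WT were Slc25a23 (log2 fold change 0.27, SE 0.0850, adjusted p = 0.193), Slc25a4 (-0.41, SE 0.157, adjusted p = 0.343) and Slc25a34 (0.38, SE 0.195, adjusted p = 0.526). Slc25a23 had a scaled CPM of 261, 243, 255, 229.6 and 248 in WT and 249.6, 316, 337, 334 and 257 in UCP1 KO. Slc25a4 was low, at 6.25, 6.41, 7.4, 7 and 4.3 in WT and 5.41, 4.81, 5.08, 3.38 and 4.91 in UCP1 KO. Slc25a34 was at 10.2, 9.44, 7.32, 6.9 and 6.86 and 6.73, 10.3, 10.6, 11.7 and 13.6. The groups overlapped for all 3. In muscle, 0 of 40 members were called in the same comparisons (backgrounds of 0.0265%, 0.0595%, 0% and 0.00662%, with 2, 2, 3 and 5 at an unadjusted p under 0.05), and 0 by DESeq2. Slc25a37 had the smallest p in UCP1 KO against WT, with 28.8, 28.9, 31.7, 30.1 and 31.9 in WT and 33.5, 35.1, 35, 39.1 and 36.3 in UCP1 KO. These groups did not overlap, but the log2 fold change of 0.24 (SE 0.0653) was not called (adjusted p = 0.237). Slc25a39 had 40.9, 39.4, 37.6, 43.4 and 36.7 in WT and 36.5, 48.2, 43.5, 49.5 and 42.9 in UCP1 KO, which overlapped, with a log2 value of 0.16 (adjusted p = 0.558). The summed scaled CPM of all members was 3818 to 3936 in the 4 genotypes of liver and 5391 to 5601 in muscle.

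The balance of paralogs was tested within libraries, where scaling has no effect. For the pairs Slc25a5 and Slc25a4, Slc25a13 and Slc25a12, Slc25a37 and Slc25a28, Slc25a24 and Slc25a25, and the glutamate carriers Slc25a22 and Slc25a18, 30 two-sided exact permutation tests in BAT and iWAT gave 0 adjusted p-values under 0.05. The design of 5 against 5 libraries cannot give p below 0.00794, so a single pair cannot pass this adjustment however well its groups are separated, and the count of 0 says little about the balance. Slc25a5 made up 70.0% of the ADP/ATP pair per length in BAT of WT, 71.9% ± 7.30 in that of UCP1 KO (SD, n = 5) and 69.5% ± 5.70 for dKO.

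Members were not tested in tissues where their counts were low. Slc25a41 and Slc25a54 did not pass the count filter in any tissue. Slc25a21 was not tested in BAT and muscle, Slc25a18 in iWAT, liver and muscle, Slc25a31 in iWAT and muscle, Slc25a43 in liver and muscle, Slc25a2 in liver and Slc25a48 in muscle.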

How the data were processed

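Total RNA of BAT, iWAT, liver and muscle was sequenced from stranded poly(A) libraries (TruSeq) of 80 samples. The authors aligned reads with STAR to mm10 and counted reads per gene with HTSeq, and the deposited values are raw counts per gene symbol, 1 table per sample. The strand setting of the counting is not given in the sources used here. The 1 row that names no gene (at most 3.4e-05% of counts) was left out. Counts were tested per tissue over all 4 genotypes with the quasi-likelihood test of edgeR 4.0.16 (R 4.3.3, limma 3.58.1, TMM factors), keeping genes with a maximum above 15, a sum above 75 and at most 10 libraries at 0 (30 in the joint fit of 40 fat libraries), which left 44 members in BAT, 43 in iWAT, 42 in liver and 40 in muscle. P-values were adjusted by the Benjamini-Hochberg method over all genes tested, and genes with an adjusted p under 0.01 were called. The standard error is the log2 fold change divided by the square root of the F statistic. The script was tested on simulated data.

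Scaled CPM are counts relative to the library size times its TMM factor, and RPKM divide them by exon length (GENCODE vM21, which matched all 47 members, 14 of them with exons shared with another gene). Marker scores are the mean log2(CPM + 0.1) of a list. Paralog ratios are log2 of counts + 0.5. Groups were taken from the genotype labels. 1 member is not reported here by name, although the counts and medians over members include it. The members, gene lists and comparisons were chosen with earlier results of these data known. Values in every library are given for members called in both BAT comparisons or in iWAT, and otherwise for the 3 with the smallest p in liver and muscle. Named levels are the 5 highest per tissue and members restricted to 1 tissue by 4 times, and Slc25a12 in BAT, Slc25a37, Slc25a48 and Slc25a51 in iWAT and the values relative to the respiratory chain were chosen after their values were seen. Alternatives were DESeq2 1.42.0, RLE factors, no count filter, an adjusted p under 0.05, marker scores as covariates, the compared genotypes alone, each library left out in turn and, chosen after seeing the data, total counts without factors and iWAT libraries with a lymph node score under 4. Depth of at least 28691377 counts limits members with few counts most.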

Additional observations from a re-analysis of the deposited data

Results flagged for a closer look

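In 6 of 80 groups of 5 libraries, the highest library stood apart from the others by Dixon's test at 95%, which chance gives in about 1 in 20 groups. In BAT, Slc25a15 was 20.8 CPM in UCP1 KO replicate 1 (others 15.9 to 17.2), and Slc25a37 was 16.1 in WT replicate 5 (others 11.9 to 13.0). In dKO replicate 4 of BAT, Slc25a16 was 64.4 (others 51.8 to 55.4) and Slc25a33 was 83.5 (others 49.5 to 58.9). The skeletal muscle score of this library was 8.48, and dKO replicates 1 and 3, with scores of 8.36 and 8.46, had Slc25a33 at 58.9 and 51.9. In iWAT, Slc25a20 was 87.6 in FGF21 KO replicate 2 (others 38.2 to 52.1), the only library of its group with a low lymph node score, 0.21. Slc25a34 was 68.2 in UCP1 KO replicate 5 of iWAT (others 5.71 to 21.8), the library with the highest brown adipocyte score of its group, 6.09. Whether these scores had a part in the values was not tested.

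The response to UCP1 loss differed between iWAT and BAT for several members, by the test of the difference in the joint fit with TMM factors. Among these were Slc25a38 (0.50 on the log2 scale), Slc25a11 (0.85), Slc25a51 (1.48), Slc25a20 (1.96), Slc25a42 (2.02) and Slc25a48 (5.28).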

How the results depend on the processing

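No paired analysis was possible because the replicate numbers follow the order of the samples and the labels do not link libraries of a mouse. Leaving out each library in turn gave 8 to 14 called members in BAT UCP1 KO against WT, 5 to 10 in dKO against FGF21 KO, 0 to 7 in iWAT UCP1 KO against WT, 0 to 6 in iWAT UCP1 KO against dKO and 5 to 9 for the difference between the depots. With an adjusted p under 0.05 these counts were 19, 14, 7, 8 and 13. DESeq2 gave 9 in both iWAT comparisons. Total counts without factors gave 17 in BAT UCP1 KO against WT and 5 in iWAT UCP1 KO against WT. The skeletal muscle score as a covariate gave 5 in BAT dKO against FGF21 KO. The lymph node score as a covariate gave 7 in iWAT UCP1 KO against WT and 9 against dKO, libraries with a low score gave 9 and 1, and the 2 compared genotypes alone gave 0 and 0. The causes were not tested, although the last 2 settings use fewer libraries. Apart from total counts in BAT, the shares of all genes called belong to the reported fits and not to these settings. In the other comparisons the counts stayed within 1.5 times the reported value, and they were 0 throughout in liver and muscle. No called member changed sign. Slc25a37, Slc25a39, Slc25a28 and Slc25a23 were called in both BAT comparisons under every alternative. Members such as Slc25a34 in WT iWAT rest on few counts, so their folds are the least precise.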
